A study of Mus musculus with 12 samples.

Results

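C-type lectin receptors are surface proteins with which macrophages and other myeloid cells bind sugars of fungi and bacteria and ligands released from dying cells. Levels of 10 of their genes, Clec4a1, Clec4a2, Clec4a3, Clec4d, Clec4e, Clec4n, Clec5a, Clec7a, Clec10a and Clec12a, were followed across the reproductive cycle of the mammary gland. They were taken by symbol from a table of 27179 genes, and all 10 were found there and passed the filter on low counts. The cells were ductal macrophages sorted from the mammary glands of C57BL/6 female mice that were virgin, 16.5 days pregnant, lactating, or 1 month past weaning. No transgene, deletion or drug is named for any group. Biological replicates numbered 3 a stage per the labels, and each library was made from 2000 cells. The gate used in the sort, the day of lactation, the age of the mice and the number of mice behind a library were not given in the sources used here. The p-values below measure the spread between these labelled replicates.

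The receptors fall into signalling classes. Clec7a (dectin-1) carries its own activating motif and recruits the kinase Syk, while Clec4n (dectin-2), Clec4d (MCL) and Clec4e (Mincle) signal through the FcR gamma chain, encoded by Fcer1g, and Clec5a (MDL-1) through DAP12, encoded by Tyrobp. Syk then acts through Card9, Bcl10 and Malt1 to switch on NF-kB and cytokine genes. Clec4a2 (the mouse DCIR) and Clec12a (MICL) carry inhibitory motifs that recruit phosphatases such as the one encoded by Ptpn6, Clec4a1 and Clec4a3 are relatives of Clec4a2, and Clec10a (MGL1) binds galactose-type sugars.

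In the RefSeq gene table of GRCm38.p6, 6 of the 10 genes lie in 1 cluster on chromosome 6, from 122921848 to 123289871, a span of 368 kb. It holds 9 protein-coding genes, in the order Clec4a1, Clec4a3, Clec4a4, Clec4b1, Clec4a2, Clec4b2, Clec4n, Clec4d and Clec4e. Clec12a (129349783 to 129365303) and Clec7a (129461591 to 129472785) lie further along that chromosome, Clec5a lies at 40574898 to 40585805 on it, and Clec10a is on chromosome 11 (70166623 to 70170836). Clec7a overlaps the lncRNA gene Gm45969, and the strand setting of the counting was not given in the sources used here, so reads of the pair cannot be told apart. The Clec4a genes resemble each other, as do Clec10a and Mgl2, and the assignment of reads between such relatives is uncertain.

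The promoters of Clec4a3, Clec12a and Clec4e are shown because these 3 genes had lower levels in all pregnant than in all virgin libraries. Each sequence is from RefSeq on GRCm38.p6, runs 5′ to 3′ in the direction of the gene, and covers 250 bases before to 50 bases after a transcript start in the table. The Clec12a window lies wholly within the listed gene, so its start is downstream of the gene's first base. Capitals mark matches, on either strand, to the AP-1 motif TGANTCA or the C/EBP motif TTGCNNAA.
Clec4a3 promoter, chr6:122952265-122952564, plus strand: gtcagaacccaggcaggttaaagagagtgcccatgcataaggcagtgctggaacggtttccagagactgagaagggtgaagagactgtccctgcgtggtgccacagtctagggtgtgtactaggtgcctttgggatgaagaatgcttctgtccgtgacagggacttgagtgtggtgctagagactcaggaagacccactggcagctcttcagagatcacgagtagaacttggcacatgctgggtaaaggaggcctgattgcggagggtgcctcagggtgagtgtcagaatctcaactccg
Clec12a promoter, chr6:129349994-129350293, plus strand: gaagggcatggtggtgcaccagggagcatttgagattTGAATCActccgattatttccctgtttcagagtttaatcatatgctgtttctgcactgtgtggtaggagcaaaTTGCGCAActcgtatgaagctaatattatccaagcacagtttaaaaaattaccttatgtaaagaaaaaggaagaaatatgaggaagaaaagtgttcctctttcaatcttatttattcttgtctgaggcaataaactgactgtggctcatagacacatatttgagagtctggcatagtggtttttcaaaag
Clec4e promoter, chr6:123289822-123290121, minus strand: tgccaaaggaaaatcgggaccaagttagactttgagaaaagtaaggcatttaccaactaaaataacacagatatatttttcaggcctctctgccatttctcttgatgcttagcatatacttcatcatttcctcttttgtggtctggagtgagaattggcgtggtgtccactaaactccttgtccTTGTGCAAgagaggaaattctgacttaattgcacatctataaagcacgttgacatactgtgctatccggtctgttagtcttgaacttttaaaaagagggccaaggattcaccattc
The Clec12a window held 1 match to each motif, the Clec4e window held 1 match to the C/EBP motif, and the Clec4a3 window held none. Among 32851 promoters of the same length, 7.81% held the AP-1 motif and 10.8% the C/EBP motif. The table held promoters of 8 of the 10 genes, Clec4n and Clec10a being the other two. Also searched were the PU.1 motif GAGGAAGT, in 3.2% of all promoters and in none of these 8 genes, and the STAT motif TTCNNNGAA, in 8.3% of all promoters and, here, in that of Clec4a2. The AP-1 motif was in the Clec4a2 window too. A match describes the letters and says nothing about binding.

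Library totals ran from 6926273 to 21204704 gene counts. The macrophage markers were all detected, with summed levels of 10500 to 38260 CPM, read counts relative to library sizes that were scaled by TMM, the trimmed mean of M values. Markers that define neutrophils were at or near 0: S100a9, Cxcr2, Retnlg, Ly6g and Ngp had no counts in any library, and S100a8, Mmp9 and Camp stayed under 1 CPM. The summed neutrophil list was 55.3 to 226 CPM, nearly all of it Csf3r and Ltf. The monocyte list reached at most 239.6 CPM, mostly Ccr2, with Chil3 at 0 and Vcan and F13a1 under 1 CPM. One library, Lactating 3, stood apart: milk protein genes made up 6.72% of its counts against 0 to 1.43% in the other 11 libraries, Csf1r was at 489 CPM against 1649 and 1669 in Lactating 1 and 2, and fewer genes were detected in it than elsewhere (10178). Many results changed without it, and values without it stand beside those results. Without it edgeR called 3.26% of all genes in pregnant against virgin, 3.1% in lactating against virgin, 5.13% in lactating against pregnant and 2.29% in post-weaning against pregnant. In bulk libraries of sorted cells, fewer cells of a type and less RNA per cell cannot be told apart.

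Clec7a was the most abundant of the receptors in every library on the per-length scale (RPKM, the CPM divided by the gene's length), at 43.5 to 67.3% of the summed RPKM of the 10 genes. Its level was 1117, 975 and 697 RPKM before pregnancy and 1040, 1416 and 665 RPKM during it. It was 1273, 1739 and 278 RPKM in the lactating libraries and 824, 1127 and 958 RPKM after weaning. The stages overlapped throughout, and no neighbours in the order lactating, pregnant, post-weaning, virgin were separated. Without Lactating 3, both remaining lactating libraries lay above all virgin and post-weaning ones, but the log2 fold change of lactating against virgin did not pass the edgeR test there either (smallest adjusted p = 0.275).

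**Figure D1:**
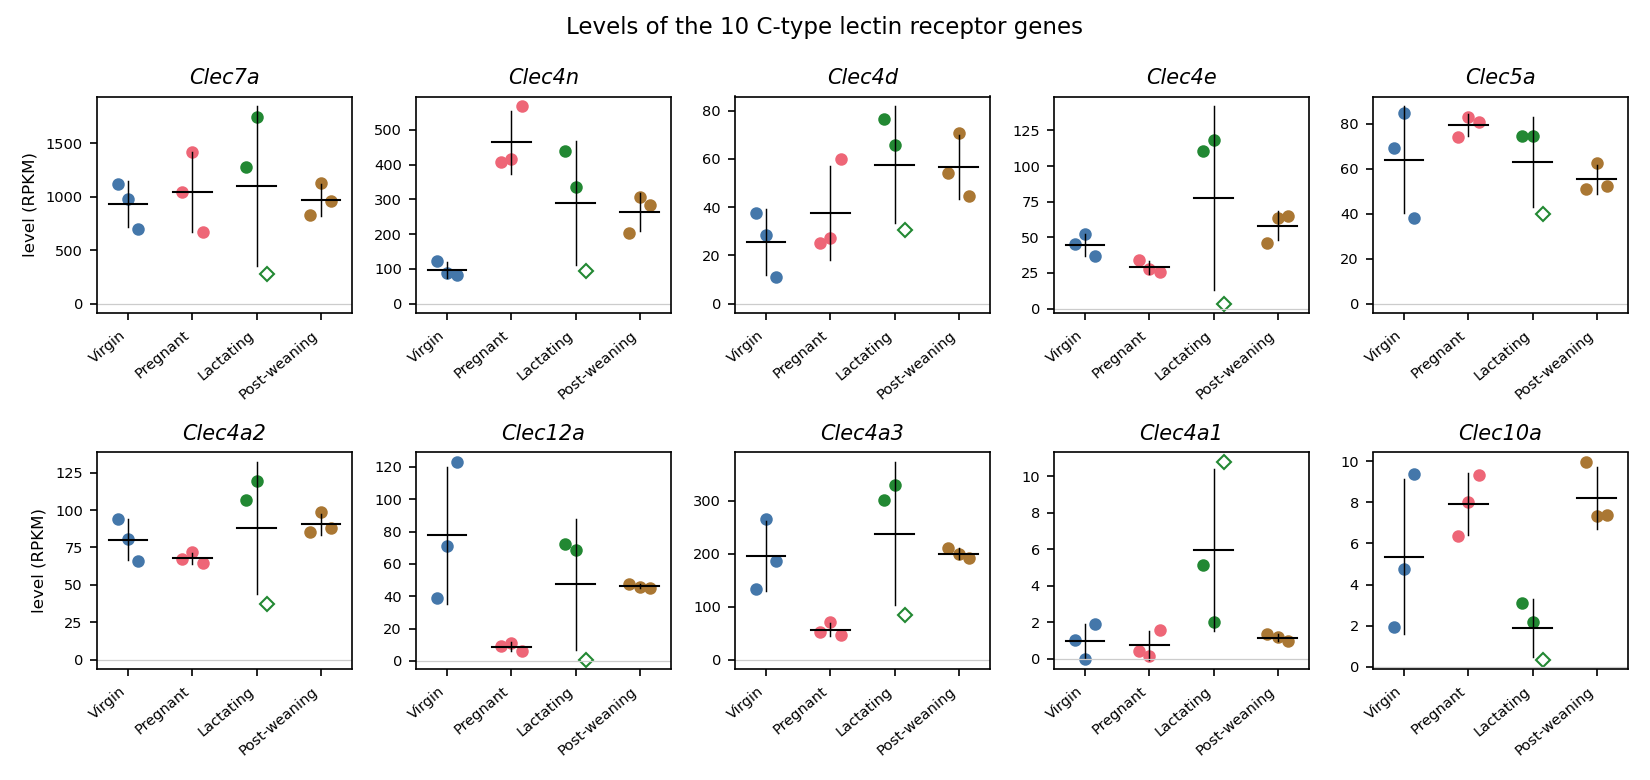
Level of each receptor gene in every library (vertical axes in RPKM, starting near 0 and scaled per gene), by stage on the horizontal axis. Points are libraries, the open diamond is Lactating 3, and the lines are the mean and ± SD of 3 libraries. Clec4n lies above all virgin libraries in each pregnant library, and Clec12a and Clec4a3 lie below them there.

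Of the receptors that use the FcR gamma chain, Clec4n changed with pregnancy. It stood at 152, 108 and 101 CPM before pregnancy and at 507, 518 and 707 CPM during it. It was at 548, 418 and 115 CPM in lactation and at 253, 382 and 352 CPM after weaning. Every pregnant library was above every virgin and every post-weaning library, and every post-weaning library was above every virgin one, while Lactating 1 and 2 lay within or near the pregnant range and Lactating 3 within the virgin one. Its mean was 577.5 ± 112 CPM (SD, n = 3) in pregnancy against 120.0 ± 27.5 in virgin glands, a log2 fold change of 2.27 ± 0.45 (SE, edgeR adjusted p = 0.0359). Clec4n was the only 1 of 10 receptors called higher or lower between these stages, where 1.32% of the 12672 tested genes were called and 0.442% were called higher. Without Lactating 3 the count was 3 of 10, Clec4a3 and Clec12a being lower, where 3.26% of all genes were called.

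The call for Clec4n depended on single libraries. Leaving out Virgin 1, 2 or 3, Pregnant 1, 2 or 3, Lactating 2, or Post-weaning 1, 2 or 3 gave log2 fold changes of 2.10 to 2.50 with adjusted p of 0.0544 to 0.158. Without Lactating 3 the value was 2.27 ± 0.24 with adjusted p = 0.000634. Lactating against virgin was 1.59 ± 0.44 (adjusted p = 0.107), and 1.96 ± 0.26 (adjusted p = 0.00216) without Lactating 3. One month after weaning the difference from virgin was 1.46 ± 0.44 with adjusted p = 0.726, and adjusted p = 0.0633 without Lactating 3. Milk protein genes, which mark secretory epithelium, also differed between these stages. They made up 0 to 0.00851% of counts in virgin libraries, 0.167 to 1.43% in pregnant ones and 0.0432 to 0.197% after weaning. In Lactating 1, 2 and 3 they made up 0.144, 0.132 and 6.72%. The summed level of the macrophage marker list was also higher in pregnancy, at 35690 to 38260 CPM against 15630 to 17570 CPM in virgin libraries. It was at 10500 to 35010 CPM in lactation and 21300 to 24900 CPM after weaning, and most of it in pregnancy was Lyz2 (24330 to 27310 CPM, against 3120 to 5447 CPM in virgin libraries). The list as a whole was not raised: its 12 markers had a median log2 fold change of -0.14 in pregnant over virgin, against 0.03 for all genes. Of them 1 was called higher and 0 lower, where 1.32% of all genes were called. The part of the milk protein or macrophage list in the Clec4n result was not tested.

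Clec4e, the receptor for trehalose dimycolate and for a protein of dying cells, was at 113, 131 and 93.3 CPM in virgin and 85.1, 69.2 and 64.3 CPM in pregnant libraries. It was at 279, 299 and 8.95 CPM in lactation and 117, 160 and 163 CPM after weaning. Pregnant libraries were the lowest apart from Lactating 3, which held less Clec4e than any other library, while the other lactating libraries held the most. No pair of stages passed the test with all libraries. Without Lactating 3, Clec4e was higher in lactation than in virgin glands by 1.31 ± 0.22 on the log2 scale (adjusted p = 0.00865) and than in pregnancy by 1.94 ± 0.22 (adjusted p = 0.000355), and higher after weaning than in pregnancy by 1.02 ± 0.20 (adjusted p = 0.0227).

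Clec4d, which pairs with Clec4e at the surface, was at 50.4, 38.1 and 14.5 CPM in virgin and 33.6, 36.5 and 80.2 CPM in pregnant libraries. It was at 102, 88.1 and 40.6 CPM in lactation and 72.2, 94.6 and 59.6 CPM after weaning. All post-weaning libraries were above all virgin ones, yet no comparison passed the test (post-weaning against virgin 1.14 ± 0.51, adjusted p = 0.811). The per-length ratio of Clec4e to Clec4d was 0.117 in Lactating 3 and 0.425 to 3.42 in the other 11 libraries.

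Clec5a, expressed by myeloid cells and paired with DAP12, passed the test in no comparison. It ranged from 146 to 324 CPM in virgin libraries, 283 to 318 in pregnant ones, 152 to 285 in lactating ones and 195 to 240 after weaning. Its post-weaning libraries were all below the pregnant ones, with a log2 fold change of -0.52 ± 0.32 that did not pass the test (adjusted p = 0.663).

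Among the inhibitory receptors and their relatives, Clec4a3 was low in pregnancy. It was at 178, 354 and 249 CPM in virgin and 68.4, 94.9 and 62.4 CPM in pregnant libraries. It was at 401, 438 and 111 CPM in lactation and 280, 266 and 254 CPM after weaning. Each pregnant library was below every library of the other 3 stages, Lactating 3 included. Lactating libraries (316.5 ± 179 CPM, n = 3) exceeded pregnant ones (75.2 ± 17.3 CPM) with a log2 fold change of 2.07 ± 0.44 (edgeR adjusted p = 0.0225). It was the only 1 of 10 receptors called there, with 3.85% of all tested genes called and 2.65% called higher. The call was lost without Pregnant 1, 2 or 3 or Lactating 1 or 2, and in a fit to the 6 libraries compared, with log2 values of 1.74 to 2.27 and adjusted p of 0.0592 to 0.107. Without Lactating 3 it was 2.43 ± 0.26 (adjusted p = 0.000248), and 3 receptors were called, with Clec4e and Clec12a.

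The other differences of Clec4a3 from pregnancy were of like size. Pregnant against virgin was -1.79 ± 0.43 (adjusted p = 0.0806), and post-weaning against pregnant was 1.83 ± 0.43 (adjusted p = 0.101). Without Lactating 3 both passed, at adjusted p = 0.00174 and 0.00276. The virgin and post-weaning means, 260 and 267 CPM, differed by less than the spread of the virgin libraries.

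Clec12a, an inhibitory receptor for uric acid crystals, passed edgeR's test in no comparison with all libraries. It was at 87, 158 and 273 CPM in virgin and 21.2, 24.6 and 13.1 CPM in pregnant libraries. It was at 161, 152 and 2.02 CPM in lactation and 106, 102 and 100.2 CPM after weaning. Pregnant libraries were below all virgin and post-weaning libraries, and Lactating 3 was below them all. Pregnant against virgin was -3.14 ± 1.00 (adjusted p = 0.219), lactating against pregnant 2.42 ± 0.98 (adjusted p = 0.211) and post-weaning against pregnant 2.39 ± 0.98 (adjusted p = 0.414). Without Lactating 3 the same differences were -3.14 ± 0.38 (adjusted p = 0.00115), 2.96 ± 0.40 (adjusted p = 0.00113) and 2.41 ± 0.37 (adjusted p = 0.00635).

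Dendritic cells also carry Clec12a, and Virgin 3, which had the most of it, held the dendritic cell genes Cd209a (88.2 CPM, and 0 in the other 11 libraries) and Flt3 (20.1 CPM, and at most 3.21 elsewhere). Both belong to the conventional dendritic cell list, whose 12 markers were all detected. The list summed to 305.4 CPM in Virgin 3, and apart from Cd209a and Flt3 it was no higher there than in pregnant libraries. The summed level of all 12 markers was 164 to 305 CPM in virgin glands and 204 to 271 during pregnancy, so pregnancy overlapped with virgin. It was 155 to 255 during lactation and 93.1 to 167 CPM after weaning. The monocyte list, mostly Ccr2, did not overlap, at 159 to 240 CPM in virgin glands and 76.6 to 119 CPM during pregnancy, and was at 7.2 to 112 CPM during lactation and 82.2 to 165 CPM after weaning. The part of either list in the Clec12a and Clec4a3 values was not tested. Without Virgin 3 the difference of pregnant from virgin was -2.64 on the log2 scale.

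Clec4a2 passed the test in no comparison. It was at 246, 211 and 173 CPM in virgin glands, 175, 187 and 168 during pregnancy, 279, 312 and 97.5 during lactation and 223, 258 and 229.6 after weaning. Post-weaning libraries lay above all pregnant ones, by 0.42 ± 0.36 on the log2 scale (adjusted p = 0.864). The other two genes were scarce. Clec4a1 had no count in Virgin 2, where 3 counts would be 0.238 CPM, and stayed under 3 CPM in all virgin, pregnant and post-weaning libraries. It was at 7.97, 3.11 and 16.8 CPM in lactation, above every other library, with exact 95% counting intervals of 5.84 to 10.6, 1.81 to 4.97 and 14.5 to 19.3 CPM. Lactating against pregnant was 3.01 ± 1.58 (adjusted p = 0.332). Clec10a was at 2.87, 7.13 and 14.1 CPM in virgin glands, 9.56 to 14 CPM during pregnancy, 4.68, 3.29 and 0.527 CPM during lactation and 11 to 14.9 CPM after weaning. Lactating libraries were below all pregnant and post-weaning ones, and the difference from pregnancy was -2.08 ± 0.88 (edgeR adjusted p = 0.234). DESeq2 called it (-2.10, adjusted p = 0.0494), where it called 13% of all genes. Without Lactating 3, no comparison of Clec4a1, Clec4a2, Clec4d, Clec5a or Clec10a passed edgeR's test either, and the smallest adjusted p was 0.0507 (Clec4a2 in lactating against pregnant, 0.69 ± 0.18). Counting intervals cover counting error only.

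**Figure D2:**
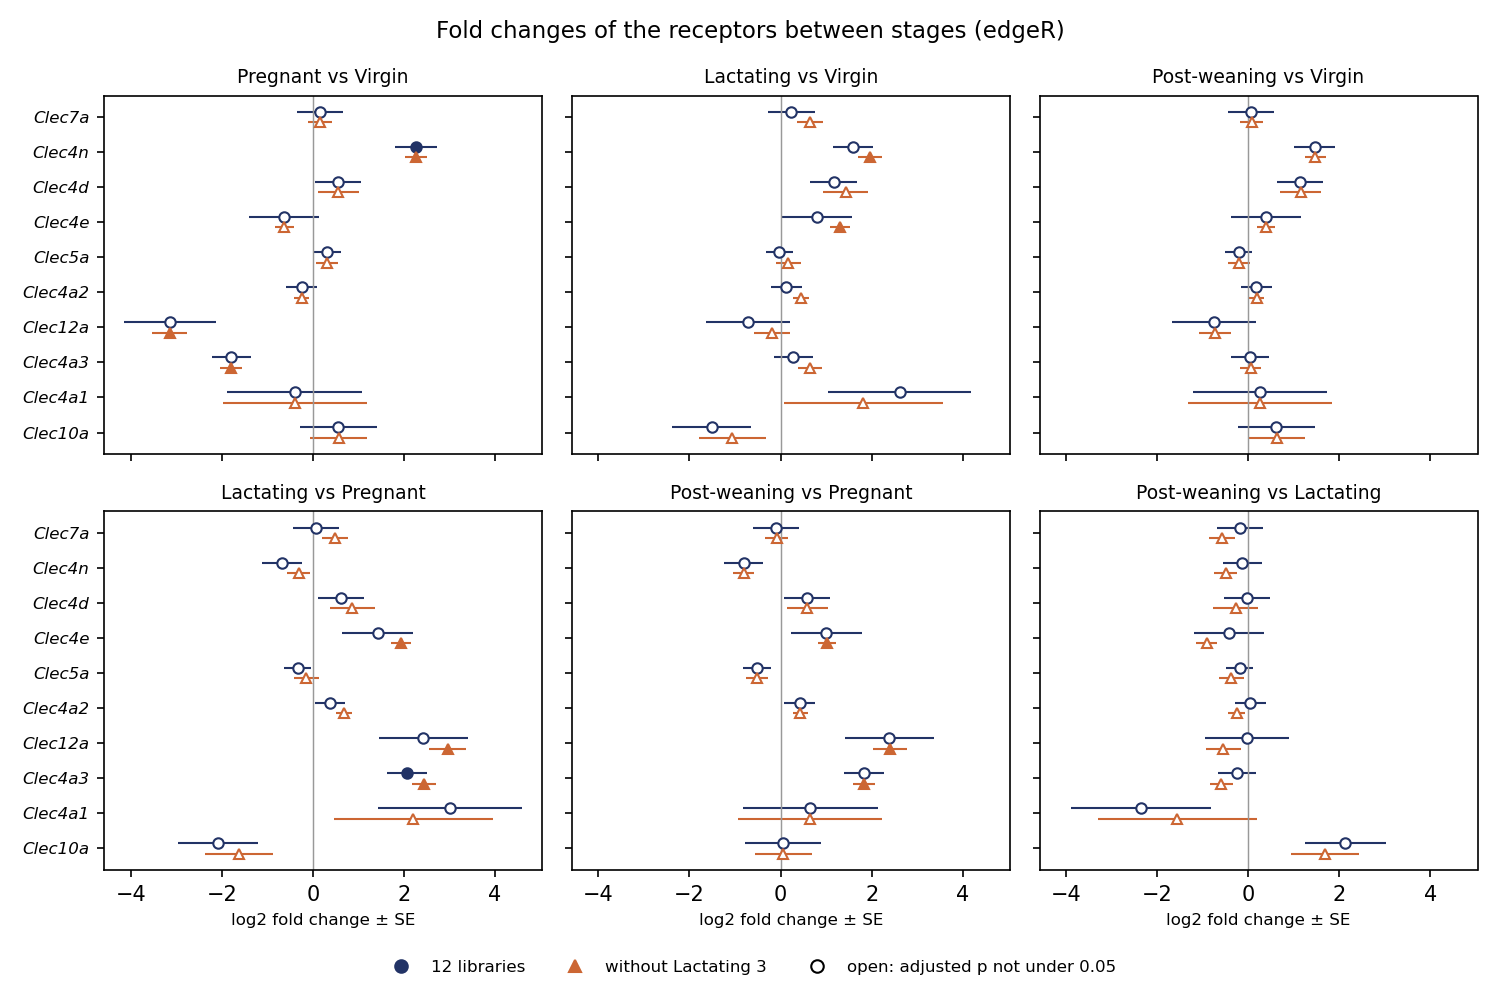
Log2 fold change of each receptor (horizontal axis, ± SE) in the 6 comparisons of stages, from edgeR on all 12 libraries (circles) and without Lactating 3 (triangles). Filled symbols have an adjusted p under 0.05. With 12 libraries only Clec4n in pregnancy against virgin (2.27) and Clec4a3 in lactation against pregnancy (2.07) are filled.

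In the other 4 comparisons edgeR called 0 of the 10 receptors. Lactating against virgin had 1.94% of all genes called. There 2 receptors had an unadjusted p under 0.05, as did 2129 of all 12672 tested genes. DESeq2 (10.5% of all genes) and limma-voom (1.94%) each called 1 receptor (Clec4n), and edgeR called 2 without Lactating 3. Post-weaning against pregnant had 0.718% of all genes called, with 2 receptors and 1297 of the 12672 genes at an unadjusted p under 0.05. DESeq2 (4.68% of all genes) and limma-voom (7.09%) each called 1 receptor (Clec4a3), and edgeR called 3 without Lactating 3. Post-weaning against lactating had 0.923% of all genes called, with 1 receptor and 1912 of the 12672 genes at an unadjusted p under 0.05. Post-weaning against virgin had 0% called, with 2 such receptors and 765 such genes. DESeq2 and limma-voom called 0 receptors in both. In the test of any difference between the 4 stages, which called 3.35% of all genes, no receptor passed. Clec4n (adjusted p = 0.0701) and Clec4a3 (0.0742) had an unadjusted p under 0.05, as did 2113 of the 12672 genes. DESeq2 and limma-voom each called 2 receptors, with 13% and 6.84% of all genes called. Without Lactating 3 that test called 4, Clec4a3, Clec4e, Clec4n and Clec12a, and 5.76% of all genes.

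The median log2 fold change of the 10 receptors stayed near that of all tested genes between pregnant and virgin glands (-0.04 against 0.03). It was 0.26 against -0.06 for lactating over virgin, and 0.50 against -0.14 for lactating over pregnant. Without Lactating 3 these became 0.64 against -0.15 and 0.78 against -0.25. With all libraries the median was 0.21 against 0.02 for post-weaning over virgin and 0.50 against 0.01 for post-weaning over pregnant. Post-weaning over lactating had -0.15 against 0.08. Without Lactating 3, every receptor but Clec10a (1.69) had a negative value there, from -1.56 (Clec4a1) to -0.26 (Clec4a2). All genes then had a median of 0.21. Libraries of the compared stages did not overlap for 4 receptors in pregnant against virgin (24.2% of all tested genes), 1 in lactating against virgin (17.3%) and 2 in post-weaning against virgin (15.4%). They did not overlap for 3 in lactating against pregnant (26.6%), 6 in post-weaning against pregnant (27.3%) and 2 in post-weaning against lactating (21.6%). Without Lactating 3, which leaves 2 lactating libraries, the counts were 7 in lactating against virgin (29.5% of all genes), 7 in lactating against pregnant (40.8%) and 9 in post-weaning against lactating (36.4%). Summed over the 10 genes, the level was 1521 ± 234 RPKM in virgin glands, 1792 ± 310 during pregnancy, 1965 ± 1218 during lactation and 1750 ± 225 after weaning (SD, n = 3). No pair of stages passed an exact two-sided permutation test over libraries (p = 0.4 to 1, adjusted 1 over 6 pairs), and 3 against 3 cannot go below 0.1.

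Within a library, the ratio of 2 receptors needs no scaling between libraries. The per-length ratio of Clec4n to Clec4a3, chosen after the values were seen and given with no test, was 0.908, 0.325 and 0.432 before pregnancy and 7.93, 5.83 and 12.1 during it. It was 1.46, 1.02 and 1.11 in lactation and 0.967, 1.54 and 1.48 after weaning. All pregnant libraries were above all others and all virgin libraries below all others, though Virgin 1 (0.908) and Post-weaning 1 (0.967) were close, and Lactating 3 lay between the other lactating libraries. By RPKM, Clec4n had rank 2 among the 10 receptors in every pregnant and lactating library and rank 3 or 4 in virgin ones, and Clec4a3 had rank 2 in every virgin library and rank 5 or 6 in pregnant ones.

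**Figure D3:**
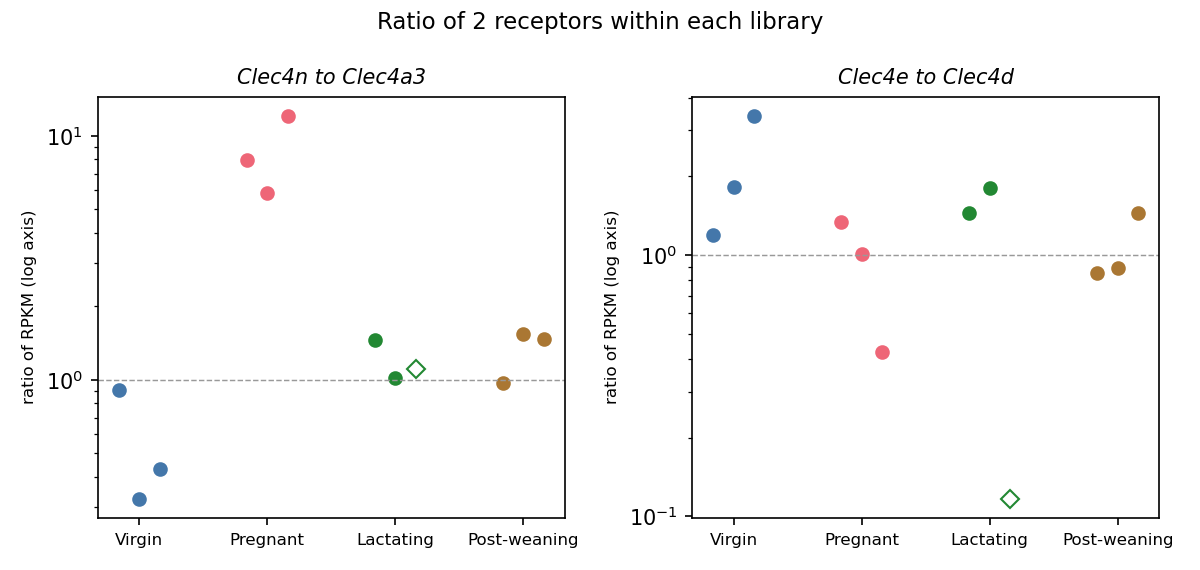
Ratio of RPKM of 2 receptors within each library (vertical log axes), by stage, with Lactating 3 as an open diamond and a dashed line at equal levels. The Clec4n to Clec4a3 ratio is 5.83 to 12.1 in pregnancy and at most 1.54 elsewhere, and the Clec4e to Clec4d ratio of Lactating 3 is the lowest at 0.117.

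Across the 12 libraries the receptors with the most similar log2 CPM were Clec4a2 and Clec4e (Pearson r = 0.96), and r was 0.92 over 11 libraries without Lactating 3. Clec4a3 and Clec12a had r = 0.79 over 12 libraries and 0.93 over 11. Clec4n and Clec12a had r = -0.10 and -0.65. These values describe libraries that share their stage and depth. Among genes with a mean log2 CPM of at least 3, those most like Clec4n were Lhfpl2 (r = 0.936), Reep5 (0.933) and Cd63 (0.925), and over 11 libraries Ms4a6d (0.947), Taldo1 (0.946) and the milk gene Csn2 (0.941). For Clec4a3 they were Tmem251 (0.945), Rel (0.943) and Tnfrsf12a (0.941), and over 11 libraries Lilr4b (0.978), Lilrb4a (0.969) and Nfkbib (0.964). For Clec12a they were Tnfsf9 (0.971), Sult1a1 (0.967) and Gm6377 (0.965), and over 11 libraries Trex1 (0.973), Errfi1 (0.968) and Dnajc12 (0.963). Only 3 of the 9 receptors measured in this way had any of their 3 genes in both lists: Clec4e for Clec4a2, Ccny for Clec4d, and Cybb for Clec7a.

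The adaptors of the receptors were abundant at every stage. Fcer1g was at 1588, 1466 and 1455 CPM in virgin glands, 982, 1032 and 1616 during pregnancy, 2281, 2187 and 978 during lactation and 1572, 1507 and 1669 CPM after weaning. Tyrobp ranged from 1119 CPM in Lactating 3 to 2278 CPM in Lactating 1. No comparison of either passed the test with all libraries. Without Lactating 3, Fcer1g was higher in lactation than in pregnancy by 0.83 ± 0.20 (adjusted p = 0.0356). Fcer1g in pregnant against virgin, where Clec4n was higher, was -0.31 ± 0.30 (adjusted p = 0.843). Ptpn6 was at 136 to 275 CPM and passed in no comparison. Card9 was at 0 to 18 CPM with wide scatter in every stage, post-weaning included (0.0916 to 3.28 CPM), and passed in none.

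Of 28 partner and signalling genes, 27 were tested. In lactation against pregnancy, where 3.85% of all genes were called, 3 rose and 0 fell: Malt1, Vav3 and Syk. Malt1, the protease of the Card9 complex, was at 427, 659 and 384 CPM in lactation and 129.5 to 190.2 CPM in the other 9 libraries, so lactation did not overlap with any stage. Its log2 fold change was 1.49 ± 0.22 over pregnant (adjusted p = 0.00347), 1.51 ± 0.22 over virgin (adjusted p = 0.00589), and it fell by 1.73 after weaning (adjusted p = 0.00572). Syk was at 76, 64.9 and 105 CPM in pregnant and 139, 204 and 304 CPM in lactating libraries, a difference of 1.40 ± 0.29 (adjusted p = 0.0191), or 1.01 ± 0.25 (adjusted p = 0.0407) without Lactating 3, which held the most. Vav3, an exchange factor downstream of Syk, was the only 1 of the 27 that edgeR called in pregnancy, where it was lower than in virgin libraries (-2.40 ± 0.52, adjusted p = 0.0486). There edgeR called 1.32% of all genes, while DESeq2 called 2 partners lower (5.7% of all genes) and limma-voom 3 (3.73%). Vav3 was higher in lactation than in pregnancy by 2.63 ± 0.53 (adjusted p = 0.0163). In lactation against virgin (1.94% of all genes called) and in post-weaning against lactation (0.923%) Malt1 was the only 1 called. Without Lactating 3, lactation against pregnancy had 5 higher, where 5.13% of all genes were called. The list's median was -0.26 in pregnant over virgin and 0.45 in lactating over pregnant.

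**Figure D4:**
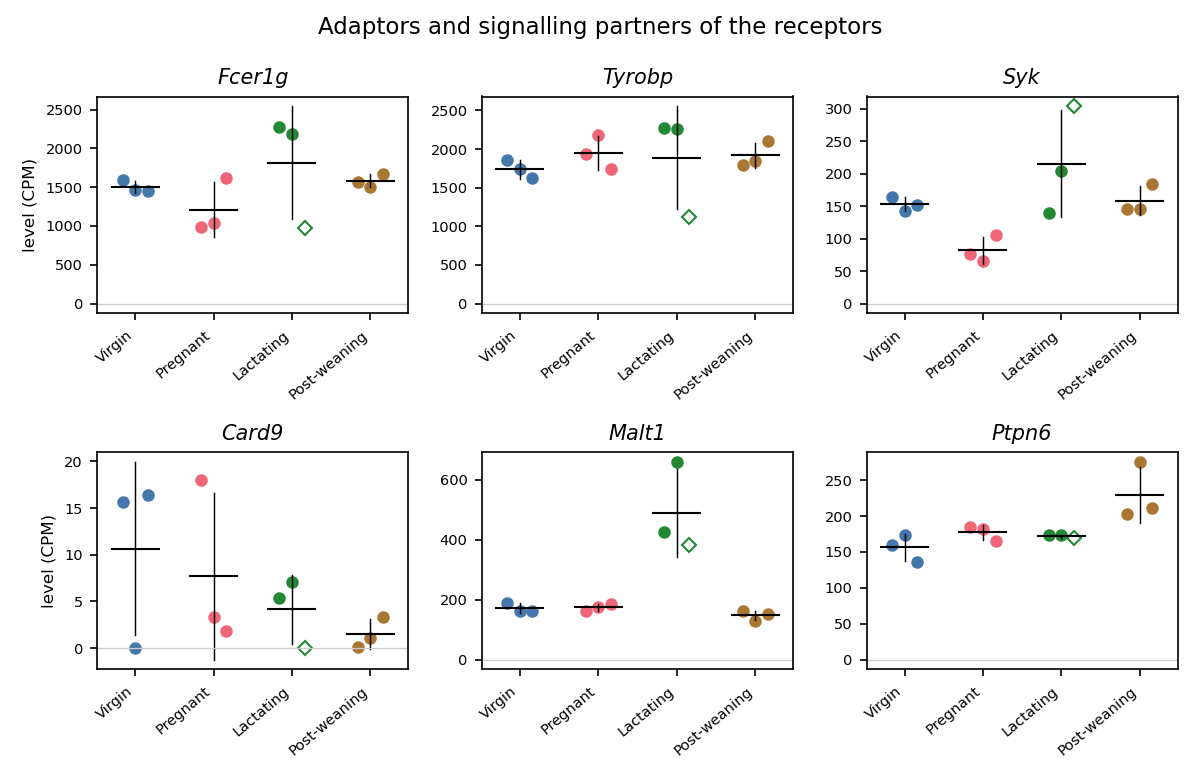
Levels of 6 partner genes in every library (vertical axes in CPM), by stage, with Lactating 3 as an open diamond and lines at the mean and ± SD of 3 libraries. Malt1 is at 384 CPM or more in the lactating libraries and at most 190.2 CPM elsewhere, while Fcer1g and Tyrobp overlap between stages.

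Genes that Syk and Card9 signalling is known to induce, 27 of a list of 30 tested, are also targets of many other pathways. The list was chosen with earlier results of these data known. In pregnancy against virgin, where 1.32% of all genes were called, 6 fell and 0 rose. The smallest p-values belonged to Egr1 (-2.54 ± 0.35, adjusted p = 0.00702), Nfkbiz (-1.93 ± 0.27, adjusted p = 0.00761) and Nfkbia (-1.12 ± 0.19, adjusted p = 0.0169). In lactation against pregnancy, where 3.85% of all genes were called, 14 rose and 0 fell. They were led by Cxcl3 (5.05 ± 0.49, adjusted p = 0.000295), Il10 (3.23 ± 0.38, adjusted p = 0.000879) and Cxcl1 (2.80 ± 0.37, adjusted p = 0.00191). Without Lactating 3 the counts were 14 of 28 lower (3.26% of all genes called) and 17 of 28 higher (5.13%). The list's median was -1.11 in pregnant over virgin and 1.90 in lactating over pregnant, where the 10 receptors had -0.04 and 0.50. In lactation against virgin 4 rose and 1 fell (1.94% of all genes called). After weaning 5 were higher than in pregnancy (0.718%) and 3 lower than in lactation (0.923%). Without Lactating 3 these counts were 9 and 1 (3.1% of all genes), 11 (2.29%) and 11 (1.8%). After weaning edgeR called 0 of 27 against virgin, with 2 at an unadjusted p under 0.05, as were 765 of all 12672 tested genes. DESeq2 and limma-voom called 0 of the list as well.

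Other C-type lectin genes, 19 of a list of 40 tested, included larger changes. Cd207 (langerin, the Langerhans cell lectin) was at 324, 352 and 188 CPM in virgin glands, 123, 77.6 and 130 during pregnancy, 2992, 2558 and 1413 during lactation and 345, 257 and 287 CPM after weaning. The lactating libraries were all above every other library. Lactation exceeded pregnancy by 4.40 ± 0.37 (adjusted p = 0.000163) and virgin by 3.01 ± 0.35 (adjusted p = 0.0037). Cd72, an inhibitory receptor best known from B cells, was at 205 to 308 CPM in pregnancy, 475 to 616 in virgin and post-weaning libraries and 990 to 1280 in lactation. It was lower in pregnancy than in virgin libraries by a log2 value of -1.19 ± 0.20 (adjusted p = 0.016) and higher in lactation than in pregnancy by 2.23 ± 0.21 (adjusted p = 0.000276). The B cell list, of whose 6 markers 3 reached 1 CPM and Pax5 had no counts, was likewise lower in pregnancy, at 165 to 235 CPM against 252 to 436 CPM in virgin libraries, mostly Ighm. It was at 324 to 417 CPM in lactation and 270 to 489 CPM after weaning, and its part in the Cd72 result was not tested.

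In all, 1 of the 19 was higher and 2 lower in pregnancy than in virgin libraries (1.32% of all genes called). In lactation 4 were higher than in virgin libraries (1.94%) and 6 higher than in pregnancy (3.85%). After weaning 1 was higher than in pregnancy (0.718%) and 2 lower than in lactation (0.923%). Without Lactating 3, pregnancy against virgin had 1 of 20 higher and 7 lower (3.26% of all genes called). Post-weaning against pregnancy then had 5 higher (2.29%), and post-weaning against lactation 1 higher and 2 lower (1.8%). Klrb1b, known as an inhibitory receptor of NK cells, was at 171, 252 and 205 CPM in lactation and at most 18.9 CPM in the other 9 libraries, and lactation exceeded virgin by 5.32 ± 1.08 (adjusted p = 0.0319). Cd93 was at 14.1 to 27.8 CPM in virgin and 0 to 1.33 CPM in pregnant libraries, with a log2 fold change of -5.44 ± 1.12 (adjusted p = 0.0409). The summed endothelial markers were likewise lower in pregnancy, at 3.31 to 9.23 CPM against 16.7 to 69.6 CPM in virgin libraries. The fibroblast markers were at 2.34 to 6.58 against 23.8 to 376 CPM. None of the 6 and 5 markers tested was called, and the part of either list in the Cd93 result was not tested. Mgl2, the close relative of Clec10a, was at 29.7, 10.9 and 15.9 CPM in pregnant and 174, 107 and 50 CPM in lactating libraries. It rose by 2.55 ± 0.50 on the log2 scale (adjusted p = 0.0149), where Clec10a had a value of -2.08 that did not pass in edgeR. Mrc1, the mannose receptor, was at 64.6, 108 and 124.5 CPM in virgin glands, 5.45, 5.85 and 2.73 during pregnancy, 21.7, 9.69 and 0 during lactation and 129, 183 and 166 CPM after weaning. It passed the test of any difference (adjusted p = 0.0476) but no pairwise one, and pregnant against virgin was -4.42 ± 1.11 (adjusted p = 0.0955), or -4.43 ± 0.42 (adjusted p = 0.000392) without Lactating 3.

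**Figure D5:**
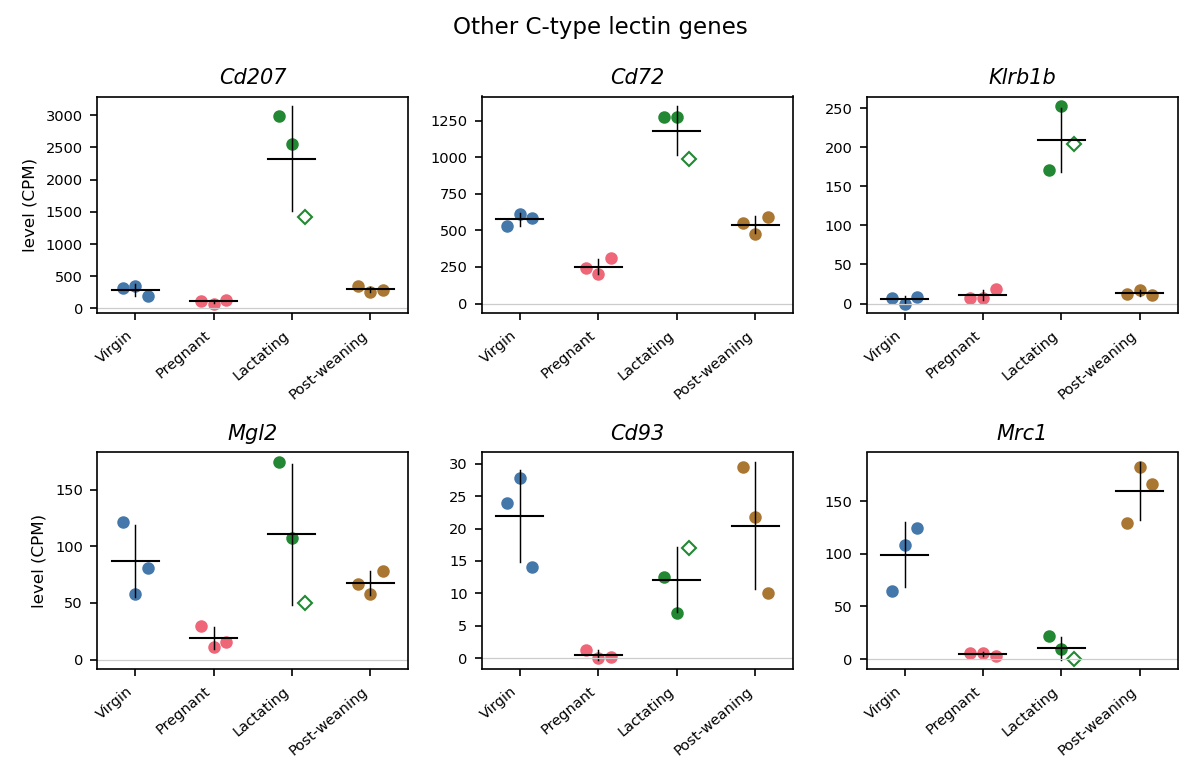
Levels of 6 other C-type lectin genes in every library (vertical axes in CPM), by stage, drawn as in the plot of partner genes. Cd207 is at 1413 to 2992 CPM in lactation and at most 352 CPM elsewhere, and Mrc1 is at most 5.85 CPM in pregnancy.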

How the data were processed

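RNA was isolated from sorted cells with the RNeasyPlus Mini kit and SMART-Seq v4 cDNA followed, with a kit that adds no molecular identifiers, per the labels' protocols; all libraries shared 1 sequencing run. The authors deposited raw counts per gene, made with featureCounts on mm10 per the submitters' processing notes; the aligner and version were not given in the sources used here. Symbols came from a RefSeq table of GRCm38.p6 by Entrez identifier, for 25275 of 27179 genes (93%). The receptors and gene lists were chosen with earlier results of these data known.

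filterByExpr left 12672 genes. edgeR 4.0.16 (R 4.3.3, TMM scaling, robust quasi-likelihood test) was fitted once to all 12 libraries with a mean per stage, and adjusted p-values (Benjamini-Hochberg over all tested genes) under 0.05 were called. The common biological coefficient of variation was 0.856. CPM and RPKM were computed here from TMM-scaled sizes and the gene lengths in the count table. The log2 CPM used for likeness have a prior count of 2. The procedure was tried on a simulated pregnant against virgin comparison of 12187 genes. Where a gene was made to differ by a factor of 2, edgeR found 1 out of 65. At a factor of 4 it found 17 out of 69, and at 8 it found 27 out of 58. Wrong calls numbered 3, out of 48 made. Most simulated 2-fold differences were therefore missed, so a receptor that did not pass is not shown to be unchanged. Alternatives were DESeq2 1.42.0, limma-voom (limma 3.58.1) with quality weights, RLE factors, TMM without secretory, epithelial, ribosomal and mitochondrial genes, other filters, a replicate block, 6-library fits and leaving out each library; list counts and likeness without Lactating 3 were added after seeing the data. Named genes are all 10 receptors, 7 fixed partners and lectins, at most 3 called genes with the smallest adjusted p per list and comparison, and the 3 genes most alike to each receptor with a mean log2 CPM of at least 1. Not every gene that this takes is described.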

Additional observations from a re-analysis of the deposited data

How the results depend on the processing

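The number of receptors called (of 10) was 1 in pregnant against virgin. It was 3 with DESeq2, limma-voom or a fit to the 6 libraries compared, in each case Clec4a3, Clec4n and Clec12a. Of all genes, 1.32% were called in the main fit, 5.7% by DESeq2, 3.73% by limma-voom and 230 of 11478 with 6 libraries. Leaving out 1 library gave 0 to 3 there. Lactating against virgin had 0 calls (1.94% of all genes), 1 with DESeq2 (10.5%) or limma-voom (1.94%), and 0 to 2 with a library left out. Lactating against pregnant had 1 (3.85% of all genes), then 2 with DESeq2 (Clec4a3 and Clec10a, 13% of all genes) and 3 with limma-voom (7.88%). It had 0 with 6 libraries (147 of 10892 genes), and 0 to 3 with a library left out. Post-weaning against pregnant had 0 (0.718% of all genes), then 1 with DESeq2 (4.68%) or limma-voom (7.09%). It had 3 with 6 libraries (590 of 11746 genes), and 0 to 3 with a library left out. The test of any difference had 0 (3.35% of all genes), then 2 with DESeq2 (13%) or limma-voom (6.84%). It had 1 without the low-count filter (406 of 17312 genes), and 0 to 4 with a library left out. Every highest leave-one-out count came without Lactating 3, where 3.26%, 3.1%, 5.13%, 2.29% and 5.76% of all genes were called, in the order above. Post-weaning against virgin and against lactating had 0 under every alternative run.

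Same-numbered libraries of different stages did not deviate together (r = -0.068 to 0.073 over 18 pairs). Differently numbered ones had r = -0.078 to 0.11 over 36 pairs. These values show no pairing by number, but with 3 libraries a stage they cannot exclude a shared batch. A replicate block gave 0 calls in pregnant against virgin (Clec4n 2.32, adjusted p = 0.0689), where it called 100 of 12672 genes.

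The log2 ratio of summed RPKM reversed for post-weaning over pregnant with RLE factors (0.00821, against -0.034). On the summed log2 CPM scale, whose values are differences of sums, pregnant minus virgin was -1.49, post-weaning minus pregnant 6.05 and post-weaning minus lactating 2.99. With 1 library left out the log2 ratios ran from -0.000461 to 0.807 for lactating over virgin, -0.237 to 0.57 for lactating over pregnant, -0.137 to 0.11 for post-weaning over pregnant and -0.604 to 0.203 for post-weaning over lactating. The cause of these changes was not tested.

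Genes called over the whole table depended on the tool: 167, 727 and 473 in pregnant against virgin, and 488, 1622 and 998 in lactating against pregnant, by edgeR, DESeq2 and limma-voom. Of the 60 single-gene fold changes under 20 alternatives, 17 values lost and 25 gained a call, and none of the called ones changed sign. Clec4a1 and Clec10a rest on few counts.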
